A study of Saccharomyces cerevisiae with 96 samples.

Results

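The mRNAs described here were those of 5 hexose transporter genes, HXT1, HXT2, HXT3, HXT4 and HXT5, and of 2 glucose sensor genes, SNF3 and RGT2. Each was read by the probe set whose annotation names that gene and no other, which gave 7 of 5656 genes with a probe set of their own, or 7 of the 9275 yeast probe sets, on the Affymetrix YG-S98 array (the genes are YHR094C, YMR011W, YDR345C, YHR092C, YHR096C, YDL194W and YDL138W, in the order above). The study followed mRNA levels after transcription was blocked with thiolutin in a yeast strain with working nonsense-mediated mRNA decay (NMD) and in one without it, to ask which mRNAs depend on NMD. The Nmd+ strain was S288C. The Nmd- strain, YRZ1, was congenic with it and carried upf1Δ::KanMX4, so that UPF1, a gene NMD requires, was replaced by a drug resistance cassette. Both strains also carried gal2, mal, mel, flo1 and flo8-1 beside SUC2 and CUP1. Cultures in mid-log phase received thiolutin at 10 µg/ml and were sampled at 16 times from 0 to 60 min in 3 independent trials per strain, called courses here, which gave 96 arrays, and the notes of the 6 arrays at 4 min give 14 µg/ml. The growth medium and its glucose content are not given in the sources used here. Both strains had high levels of the α-cell receptor gene STE3 (median log2 values of 9.14 in Nmd+ and 9.07 in Nmd-) and low levels of the a-cell receptor gene STE2 (2.87 and 3.50), and so both read as α cells by their receptor genes. The α-factor genes MF(ALPHA)1 (11.53 and 11.45) and MF(ALPHA)2 (9.22 and 8.97) were also high, and the a-cell gene BAR1 was low (3.25 and 3.28). The a-factor genes did not read as low, with medians from 5.12 to 5.58 for MFA1 and of 6.97 and 6.66 for MFA2.

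Yeast takes up glucose by facilitated diffusion through a family of Hxt proteins that differ in their affinity for the sugar. Hxt1 and Hxt3 are low-affinity carriers used when glucose is plentiful, Hxt2 and Hxt4 are carriers of higher affinity induced when it is scarce, and Hxt5 is known from slow growth, starvation and non-fermentable carbon sources. Snf3 and Rgt2 resemble transporters but serve as sensors of low and high glucose, and their signal leads to the destruction of the corepressors Mth1 and Std1, which frees HXT promoters from the repressor Rgt1. HXT4, HXT1 and HXT5 lie close together on chromosome VIII, where RefSeq has only AHT1 between HXT4 and HXT1 and no gene between HXT1 and HXT5, while HXT3, SNF3 and RGT2 are on chromosome IV and HXT2 is on chromosome XIII.

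The values are log2 signals from robust multi-chip average (RMA), which gives all arrays the same overall distribution. A rise or fall is therefore relative to the rest of the mRNA, and synthesis, slower loss and a fall of other mRNAs cannot be told apart in it. Levels of different probe sets were not compared with each other.

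UPF1 and the KanMX4 cassette were read first, as a check of the strain labels. UPF1 lay between 5.42 and 7.44 on the Nmd+ arrays and between 1.93 and 3.81 on the Nmd- arrays that matched their label, and KanMX4 between 3.34 and 6.26 and between 11.65 and 12.54. On 4 arrays, those labelled Nmd- course 1 at 10, 40, 45 and 50 min, both markers lay on the side of Nmd+. On 2 more, labelled Nmd+ course 1 at 20 min and Nmd+ course 3 at 60 min, KanMX4 was high, at 8.28 and 11.28, with UPF1 on the side of its label. The order of the times was read from the correlation between arrays of 1 course over probe sets other than the 7. In Nmd+ the arrays at 6 and 10 min were nearer to those at 0 to 4 min than to those at 45 to 60 min in 3 of 3 courses, and those at 20 min were nearer to the late ones in 3 of 3. The Nmd- arrays labelled 6 and 10 min were nearer to the late arrays in 3 of 3 courses each, and those labelled 20 min were nearer to the early ones in 3 of 3. In course 1 the array at 10 min shares its marker side with the late arrays at 45 and 50 min, so time and marker side cannot be told apart there. Its array at 6 min had a negative mean r with both the early (-0.28) and the late arrays (-0.06). The Nmd- arrays at 8 and 12 min kept their place. Labels were used as given, and a tested change or strain difference described singly for one of the 7 is given both ways where leaving out these arrays changed its call or moved it by over 1.5 times. Without the arrays with a marker against their label, Nmd- course 1 keeps only its array at 60 min in the 45-60 min window. Where Nmd- arrays are left out for their time, Nmd+ keeps all its times, so the strains then differ in time. For RGT2 in Nmd- at 45-60 min only the course concerned is given the second way. What set these arrays apart was not tested.

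**Figure D1:**
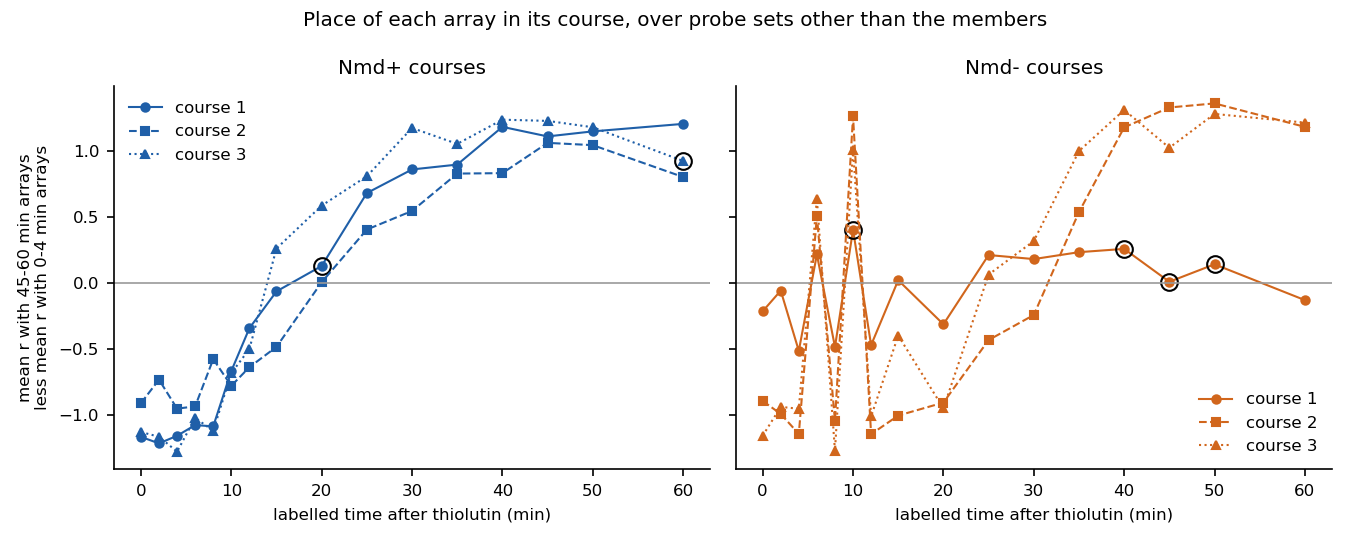
Mean correlation of each array with the arrays at 45 to 60 min of its course less that with the arrays at 0 to 4 min (y axis, no unit) against labelled time (x axis, min), over probe sets other than the 7, with 1 line per course and a ring on the 6 arrays with a strain marker on the side of the other strain. Values above 0 lie nearer to the late arrays, as all 3 Nmd- courses do at 6 and 10 min and no Nmd- course does at 20 min.

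Of the 7 mRNAs, HXT5 rose most in both strains, by 4.82 ± 0.67 (SD, n = 3) on the log2 scale in Nmd+ and 3.34 ± 0.83 (SD, n = 3) in Nmd-, from 0-2 min to 45-60 min. HXT4 rose in Nmd+ by 20-30 min, and SNF3 rose late in Nmd-. HXT1, HXT2, HXT3 and RGT2 had lower mean values late than at the start in both strains, without passing the test on the deposited scale. At 0 min, none of the 7 passed the test for a strain difference. The tests were limma fits over all 9275 probe sets with 1 value per course, and a call required an adjusted p under 0.05 and a change of at least 1.5-fold.

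**Figure D2:**
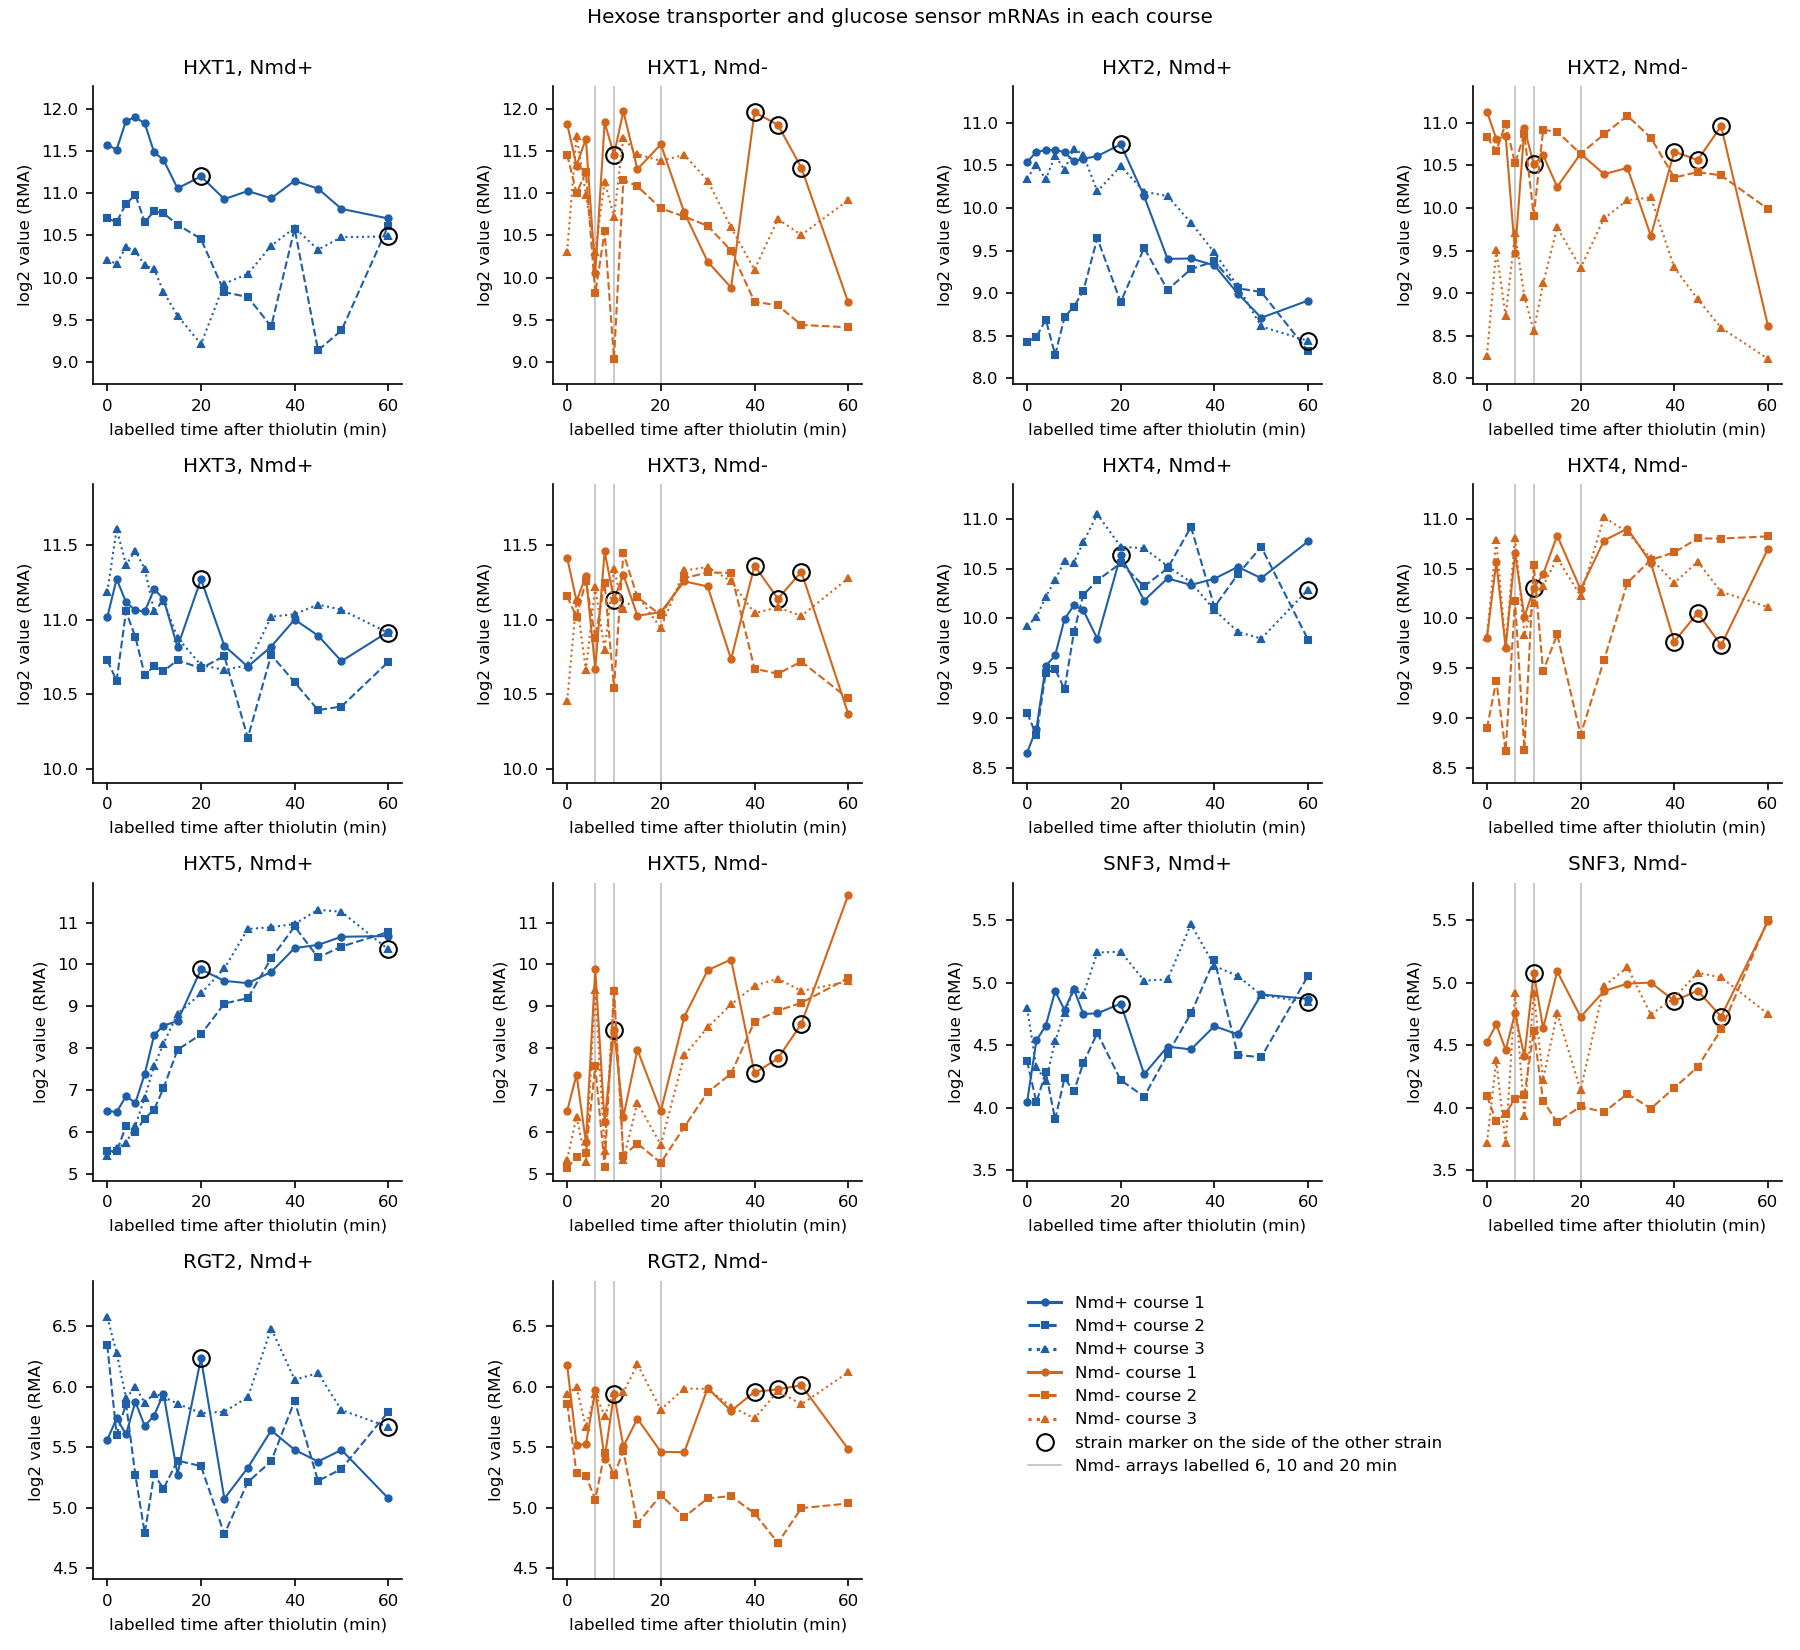
Log2 value (y axis, RMA) of each of the 7 mRNAs against labelled time after thiolutin (x axis, min), Nmd+ and Nmd- in neighbouring panels with 1 line per course. Rings mark the 6 arrays with a strain marker on the side of the other strain, and grey lines mark the Nmd- arrays at 6, 10 and 20 min. HXT5 climbs by about 5 log2 units in Nmd+ course 2, from 5.56 to 10.77, and in Nmd- its lines jump at 6 and 10 min.

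HXT5 started low and stood high at 60 min in every course. In Nmd+ its log2 value went from 6.51 at 0 min to 10.68 at 60 min in course 1, from 5.56 to 10.77 in course 2 and from 5.44 to 10.36 in course 3, which were rises of 18.0-, 37.2- and 30.3-fold. In Nmd- it went from 6.51 to 11.65, from 5.14 to 9.68 and from 5.35 to 9.60, which were rises of 35.5-, 23.2- and 19.0-fold. The values at 60 min lay above those at 0 min in all 6 courses with no overlap. The Nmd+ course 3 array at 60 min is the one with KanMX4 high, at 11.28. In Nmd+ the value first stood 1 log2 unit above that at 0 min at 10, 12 and 8 min, and the mean over courses climbed to 10.76 at 40 min and then stayed between 10.60 and 10.78. At 25 min, where no marker opposed its label, the Nmd+ courses stood at 9.61, 9.07 and 9.91 and the Nmd- courses at 8.75, 6.13 and 7.83.

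In Nmd+ HXT5 rose by 1.02 (SE 0.20, adjusted p = 0.0485) to 6-10 min, by 3.67 (SE 0.26, adjusted p = 0.00062) to 20-30 min and by 4.82 (SE 0.33, adjusted p = 0.00023) to 45-60 min. The first of these was called in 10 of 18 alternative settings. It was lost when Nmd+ course 1, Nmd+ course 2, Nmd+ course 3, Nmd- course 2 or Nmd- course 3 was left out (adjusted p of 0.182, 0.0574, 0.199, 0.0743 and 0.0611), since both strains share 1 estimate of the spread. It was also lost without the arrays whose markers oppose their label (adjusted p = 0.0609) and with a trended, robust variance (adjusted p = 0.237). The later ones were called in every setting run, 18 for 20-30 min and 19 for 45-60 min.

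In Nmd- the rise of HXT5 to 45-60 min, by 3.34 (SE 0.33, adjusted p = 0.0048), was called in all 19 settings. The window includes the arrays of Nmd- course 1 at 45 and 50 min, at 7.76 and 8.59, both with markers on the side of Nmd+, beside 11.65 at 60 min. Without every array of that kind the rise was 4.11 (SE 0.31, adjusted p = 0.00048), with course 1 read from its array at 60 min alone. At 6-10 min the fit gave a rise of 1.87 (SE 0.20, adjusted p = 0.0022), but the times within that window did not match. The 3 Nmd- courses stood at 9.89, 7.58 and 9.39 at 6 min and at 8.45, 9.37 and 9.39 at 10 min, while at 8 min they stood at 6.24, 5.18 and 5.56 and at 12 min at 6.36, 5.44 and 5.35. Every value at 6 and 10 min lay above every value at 8 and 12 min. Without the 6 arrays at 6 and 10 min, which leaves 1 array per Nmd- course in the window, the change was -0.37 (SE 0.16, adjusted p = 0.437), so that its direction turned. At 20-30 min the change of 1.25 (SE 0.26) did not pass the test (adjusted p = 0.115), and without the 9 Nmd- arrays at 6, 10 and 20 min it was 1.98 (SE 0.30, adjusted p = 0.0227) and passed.

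HXT4, a carrier of higher affinity, rose in Nmd+. Its courses stood at 8.65, 9.06 and 9.92 at 0 min and at 10.40, 10.50 and 10.53 at 30 min, so that a spread of over 1 log2 unit at the start had narrowed. The rise to 20-30 min was 1.28 (SE 0.19, adjusted p = 0.0037), a 2.42-fold change, and was called in 18 of 18 settings. At 45-60 min the courses had changed by 1.79, 1.38 and 0.02, and the mean change of 1.06 (SE 0.40) did not pass (adjusted p = 0.0829). It passed without Nmd+ course 3, at 1.58 (adjusted p = 0.0365), and without Nmd- course 2 (adjusted p = 0.0434). In Nmd- the 3 courses stood at 9.81, 8.90 and 9.81 at 0 min and at 10.90, 10.36 and 10.86 at 30 min. The changes to 20-30 min were 0.47, 0.45 and 0.40, and their mean of 0.44 (SE 0.19) did not pass the test (adjusted p = 0.281). Without the 9 Nmd- arrays at 6, 10 and 20 min it was 0.71 (SE 0.19, adjusted p = 0.0888), and the strain difference in this change went from -0.83 (adjusted p = 0.272) to -0.57 (SE 0.27, adjusted p = 0.698).

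HXT1, the low-affinity carrier whose gene lies between HXT4 and HXT5, had lower mean values later in the course. In Nmd+ it stood at 11.57, 10.70 and 10.21 at 0 min and at 11.03, 9.77 and 10.05 at 30 min, with mean changes of -0.54 (SE 0.20, adjusted p = 0.0964) to 20-30 min and -0.47 (SE 0.31, adjusted p = 0.287) to 45-60 min. By 60 min it stood at 10.70, 10.62 and 10.49, and course 3 was again above its own start. In Nmd- it stood at 11.82, 11.46 and 10.31 at 0 min and at 9.71, 9.41 and 10.92 at 60 min, so that course 3 differed from the other 2 in direction between these single arrays. From 0-2 to 45-60 min all 3 courses fell, with changes of -0.63, -1.72 and -0.29. The Nmd- change of -0.88 (SE 0.31) to 45-60 min did not pass (adjusted p = 0.0706). Without the arrays with markers against their label it was -1.29 (SE 0.33, adjusted p = 0.0218) and passed, with course 1 read at 60 min alone. The Nmd- change to 6-10 min, -0.72 (SE 0.20, adjusted p = 0.0493), was called in 7 of 18 settings, was lost whichever single course was left out, and without the arrays at 6 and 10 min was -0.09 (SE 0.18, adjusted p = 0.893).

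HXT2, a high-affinity carrier, set the courses apart more than the strains. At 0 min it stood at 10.54, 8.43 and 10.35 in Nmd+ and at 11.13, 10.84 and 8.26 in Nmd-, so that 1 course in each strain lay over 1.9 log2 units below the others. By 60 min the Nmd+ courses stood at 8.91, 8.32 and 8.44 and no longer differed in this way. Nmd+ courses 1 and 3 had fallen by 1.73 and 1.72 by 45-60 min, while course 2, low from the start, had changed by 0.34. The mean change of -1.03 (SE 0.37) therefore did not pass (adjusted p = 0.0705), and without Nmd+ course 2 it was -1.72 (SE 0.21, adjusted p = 0.0031) and passed. The Nmd- courses changed by -0.93, -0.49 and -0.30, with a mean of -0.57 (SE 0.37, adjusted p = 0.301). Without every array with a marker against its label that mean was -1.05 (SE 0.48, adjusted p = 0.137), and the strain difference in the change went from 0.46 (adjusted p = 0.742) to -0.06 (SE 0.68, adjusted p = 0.992). Nmd- course 1 is then read at 60 min alone.

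The differences between courses at the start were large for HXT2, HXT5, HXT4 and HXT1 and near the median of the array for HXT3, RGT2 and SNF3. The SD between courses of 1 strain at 0-2 min, pooled over strains, was 1.17 for HXT2, larger than in 99.3% of all probe sets, 0.713 for HXT5, 0.645 for HXT4 and 0.527 for HXT1. It was 0.315 for HXT3, 0.311 for RGT2 and 0.270 for SNF3, beside a median of 0.275 over all probe sets. Course 1 arrays of both strains were scanned mostly in the first of 3 scan periods and those of courses 2 and 3 mostly in the second, so that scan period and course overlap. HXT1 was highest in course 1 of each strain, at 11.54 in Nmd+ and 11.57 in Nmd- over 0-2 min, and HXT5 likewise, at 6.49 and 6.94. The part of the scan period in this was not tested.

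**Figure D3:**
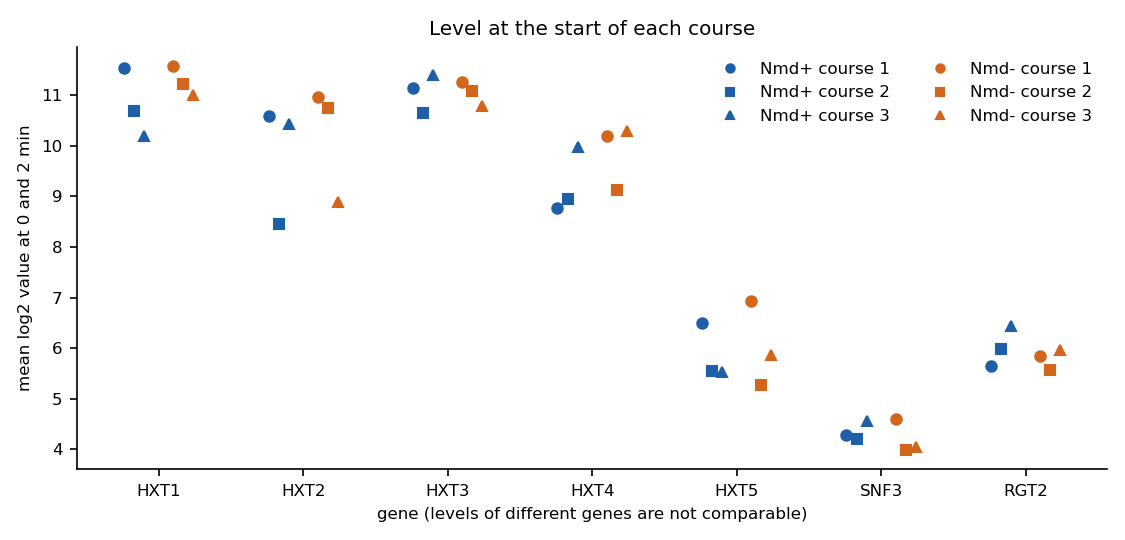
Mean log2 value at 0 and 2 min (y axis) of each of the 7 mRNAs (x axis), with 1 point per course, coloured by strain. For HXT2, Nmd+ course 2 at 8.46 and Nmd- course 3 at 8.89 lie below the other 4 courses, while the points of SNF3, RGT2 and HXT3 lie close together.

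HXT3, a low-affinity carrier, varied least among the transporters. All 96 values lay between 10.21 and 11.61, its mean changes lay between -0.35 and 0.15 in the windows of both strains, and none passed the test (adjusted p from 0.175 to 0.959). The Nmd- change to 45-60 min, -0.16 (adjusted p = 0.563), was -0.35 (SE 0.23, adjusted p = 0.292) without every array with a marker against its label, and that to 20-30 min, 0.15, was 0.24 (SE 0.17, adjusted p = 0.477) without the 9 Nmd- arrays at 6, 10 and 20 min. At 0 min it stood at 11.02, 10.73 and 11.18 in Nmd+ and at 11.42, 11.16 and 10.45 in Nmd-, and at 60 min at 10.92, 10.72 and 10.91 and at 10.37, 10.47 and 11.28. Nmd- course 3 rose over that hour while the other two Nmd- courses fell, as for HXT1.

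The mRNAs of the sensors moved little. SNF3, which encodes the sensor of low glucose, stood at 4.52, 4.09 and 3.72 at 0 min and at 5.49, 5.50 and 4.75 at 60 min in Nmd-. The rise to 45-60 min was 0.73 (SE 0.14, adjusted p = 0.0108), a 1.66-fold change, and was called in 17 of 19 settings. It was lost without Nmd- course 3, at 0.64 (SE 0.18, adjusted p = 0.0646). In Nmd+ the 3 courses changed by 0.50, 0.42 and 0.37, and the mean of 0.43 (SE 0.14, adjusted p = 0.0545) did not pass. The difference between strains in this change was 0.30 (SE 0.20, adjusted p = 0.560). All SNF3 values lay below the median of every array (5.86 to 6.08), and dim probe sets respond less to the amount of RNA. RGT2, which encodes the sensor of high glucose, stood at 5.56, 6.35 and 6.58 at 0 min in Nmd+ and at 5.08, 5.79 and 5.67 at 60 min. Its mean changes were -0.52 (SE 0.17, adjusted p = 0.0711) to 20-30 min and -0.48 (SE 0.17, adjusted p = 0.0654) to 45-60 min. The first passed without Nmd+ course 1, at -0.73 (adjusted p = 0.0461), and without every array with a marker against its label, at -0.64 (adjusted p = 0.0178). In Nmd- the change to 45-60 min was -0.22 (SE 0.17, adjusted p = 0.369), with course 1 at -0.02 and course 3 at 0.01. Without its arrays with markers against the label, course 1 went from 5.85 at 0-2 min to 5.49 at 60 min, a larger fall.

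**Figure D4:**
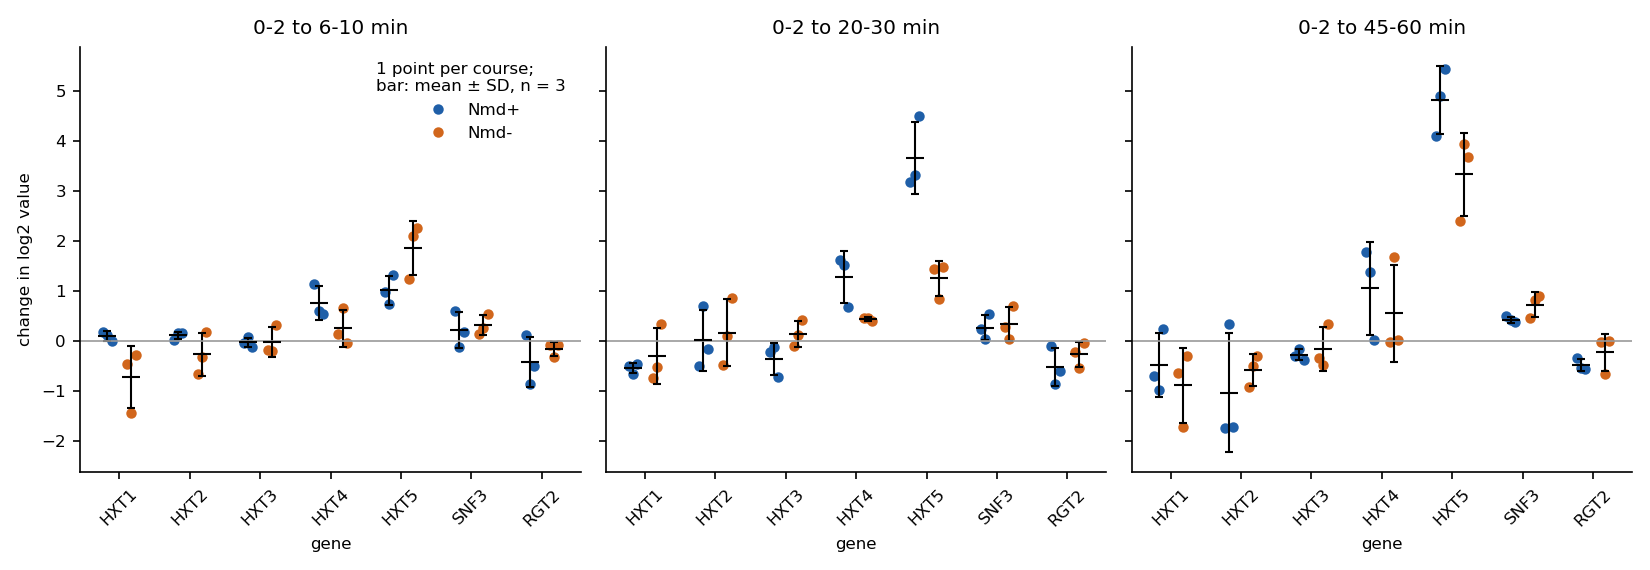
Change in log2 value from 0-2 min to each later window (y axis) for the 7 mRNAs (x axis), with 1 point per course and the mean ± SD (n = 3). The Nmd+ points of HXT5 at 20-30 min, from 3.19 to 4.49, lie above all Nmd- points, from 0.84 to 1.49 with the arrays at 20 min included, and for the other mRNAs the strains mostly overlap.

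The members called are set here beside the share of all probe sets called in the same comparison. In Nmd+, 1 of 7 was called at 6-10 min (HXT5, higher), where 0.496% of all probe sets were called higher and 0.852% lower. At 20-30 min 2 of 7 were called higher, HXT4 and HXT5, beside 6.50% higher and 10.6% lower, and at 45-60 min 1 of 7, HXT5, beside 11.1% higher and 14.3% lower. In Nmd-, HXT5 was called higher and HXT1 lower at 6-10 min, beside 4.59% higher and 5.65% lower. At 20-30 min 0 of 7 were called and 2 had an unadjusted p under 0.05, beside 0.0323% called higher and 0.0216% lower. At 45-60 min HXT5 and SNF3 were called higher, beside 9.97% higher and 11.1% lower. The members are too few for these shares to set them apart from the rest of the array.

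The question of the study, whether the strains differ, was put to each mRNA at 0 min, in each change and in the mean over the 16 times. At 0 min 0 of 7 were called by limma and 0 had an unadjusted p under 0.05, beside 4.98% of all probe sets called. The differences, Nmd- less Nmd+, lay between -0.29 for SNF3 and 0.36 for HXT1, with adjusted p from 0.628 to 0.967. With SEs from 0.28 for HXT3 to 0.82 for HXT2, differences of the size of the spread between courses could have been missed. In the changes, 0 of 7 were called at 6-10, 20-30 and 45-60 min, with 2, 2 and 1 at an unadjusted p under 0.05, and over the whole array 0.0431%, 0% and 0% were called, with 1115, 1262 and 1109 probe sets at an unadjusted p under 0.05.

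HXT5 had the largest strain differences of the 7 in the changes and in the mean. Its rise to 20-30 min was 3.19, 3.32 and 4.49 in Nmd+ and 1.43, 0.84 and 1.49 in Nmd-, with no overlap, and the difference of -2.41 (SE 0.37) did not pass after adjustment over the array (adjusted p = 0.120). Without the 9 Nmd- arrays at 6, 10 and 20 min it was -1.69 (SE 0.42, adjusted p = 0.698). At 45-60 min the difference was -1.48 (SE 0.47, adjusted p = 0.316), and it was -0.81 (SE 0.44, adjusted p = 0.697) without every array with a marker against its label and -0.13 (SE 0.37, adjusted p = 0.952) for 60 min alone against 0 min alone. The value for 60 min alone includes the Nmd+ course 3 array whose KanMX4 was high. At 6-10 min it was 0.85 (SE 0.29, adjusted p = 0.318), and without the arrays at 6 and 10 min it turned to -1.38 (SE 0.23, adjusted p = 0.0493) and was called.

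Over all 16 times the HXT5 level averaged 8.78, 8.14 and 8.70 in Nmd+ and 8.07, 6.96 and 7.66 in Nmd-, and every Nmd- mean lay below every Nmd+ mean. The difference of -0.97 (SE 0.31) did not pass (adjusted p = 0.232), where 2.72% of all probe sets were called, and 0 of the 7 were called with 1 at an unadjusted p under 0.05. Same-numbered courses deviated together in this mean, and with the replicate number as a block HXT5 was called, at -0.97 (SE 0.11, adjusted p = 0.0072), with differences of -0.71, -1.17 and -1.03 in the 3 pairs. For this mean, a time with any array left out was dropped from all 6 courses. The blocked call held without 6, 10 and 20 min (-1.26, adjusted p = 0.0075). It was lost without 10, 20, 40, 45, 50 and 60 min, the times of the arrays with a marker against their label (-0.76, adjusted p = 0.0865). That setting takes most of the late times out of every course. Without the times of both kinds of array the difference was -1.14 (adjusted p = 0.0277). For the other 6 mRNAs the difference in the mean lay between -0.11 and 0.43, with adjusted p from 0.756 to 0.940.

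The choice of scale decided the direction or the call for most of the 7. The study's own reference was a set of 110 probe sets for mRNAs chosen as long-lived from other data, HXT5 and HXT8 among them. GLK1, a gene of glucose phosphorylation read below, was also in this set and was not taken out. The study also corrected the mean line of this set for slow decay with a fitted factor, a step not taken here. With the plain mean of the 108 other than HXT5 and HXT8 as the zero of each array, the median of all probe sets shifted by -0.69 at 45-60 min in Nmd+ and by -0.48 in Nmd-. On that scale HXT5 still rose, by 4.13 (SE 0.28, adjusted p = 0.00015) in Nmd+ and 2.86 (SE 0.28, adjusted p = 0.0015) in Nmd-. HXT1, HXT2, HXT3 and RGT2 then fell by 1.16, 1.73, 0.96 and 1.17 in Nmd+ (adjusted p of 0.0122, 0.0036, 0.0029 and 0.0017) and by 1.36, 1.05, 0.64 and 0.71 in Nmd- (adjusted p of 0.0104, 0.0411, 0.0255 and 0.0237). Of the 7, 5 were then called in each strain. The centring moved every probe set of an array by the same amount, and the share of all probe sets called on that scale is not given here. These falls therefore do not set the members apart from the rest of the array. SNF3 turned to -0.26 (adjusted p = 0.141) in Nmd+ and had 0.25 (adjusted p = 0.181) in Nmd-, and HXT4 had 0.37 (adjusted p = 0.410) in Nmd+.

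**Figure D5:**
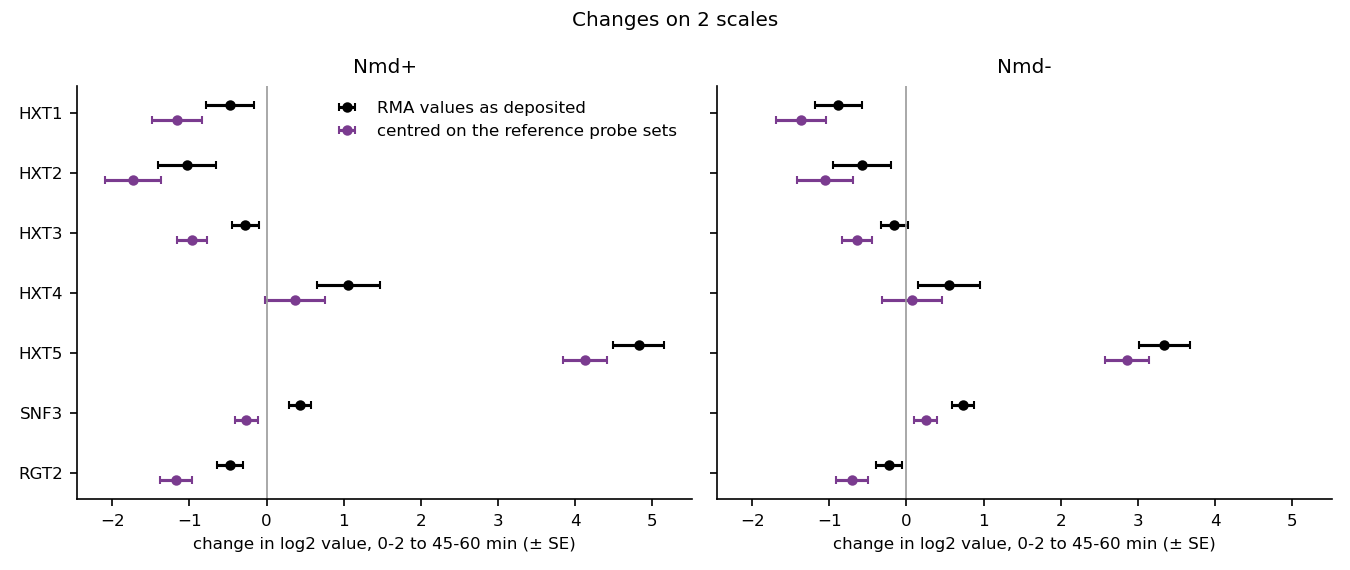
Change in log2 value from 0-2 to 45-60 min (x axis, ± SE) of the 7 mRNAs (y axis) in Nmd+ and Nmd-, on the deposited RMA scale and centred on 108 reference probe sets. HXT5 lies far to the right on both scales (4.82 and 4.13 in Nmd+), while SNF3 in Nmd+ crosses 0, from 0.43 to -0.26.

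Over the 16 time means of a strain, which share 3 cultures and so are not independent, HXT5 had r = 0.78 with HXT4 in Nmd+ and 0.80 in Nmd-, and 0.77 and 0.93 with SNF3. It had r = -0.77 and -0.93 with HXT1 and -0.66 and -0.58 with HXT2. HXT1 and HXT3 had r = 0.82 and 0.56 with each other. These means include the arrays that stood apart. Without the 9 Nmd- arrays at 6, 10 and 20 min and every array with a marker against its label, which leaves 13 times in Nmd-, HXT5 had r = 0.76 and 0.83 with HXT4, 0.77 and 0.90 with SNF3, -0.66 and -0.94 with HXT1 and -0.71 and -0.65 with HXT2. RGT2 in Nmd- had r between -0.11 and -0.03 with the others over all times, and between -0.49 with HXT5 and 0.51 with HXT1 without those arrays. Over the 32 strain and time means of all arrays, the mRNAs most like HXT5 were FIT2, a cell wall mannoprotein gene of iron uptake (r = 0.995), and OYE3, an NADPH oxidoreductase gene (0.991). Those most like HXT4 were CUR1 (0.953) and CIT2, peroxisomal citrate synthase (0.942), those most like HXT2 were YHB1, flavohemoglobin (0.930), and GLT1, glutamate synthase (0.920), and those most like HXT1 were TIM13, a mitochondrial import chaperone (0.896), and CIA2 (0.888). HXT3 was closest to RBG2 (0.817) and BCP1 (0.810), SNF3 to GLC3, the glycogen branching enzyme (0.922), and GIS1, a regulator of nutrient response (0.921), and RGT2 to URE2, a nitrogen repression factor (0.748), and URC2 (0.730).

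Other genes of glucose uptake and sensing were read from lists. Of 13 other hexose transporter genes, 6 had a probe set of their own, and 2 of these were called higher by 45-60 min in each strain, beside 11.1% of all probe sets in Nmd+ and 9.97% in Nmd-. They were HXT6 and HXT7, which are nearly identical genes whose probe sets can read each other's mRNA. HXT6 rose by 0.92 (adjusted p = 0.0080) in Nmd+ and 0.75 (adjusted p = 0.0245) in Nmd- by 45-60 min, and HXT7 by 0.89 (adjusted p = 0.0065) and 0.66 (adjusted p = 0.0283). Centred on the reference probe sets they had 0.23, 0.27, 0.20 and 0.18 and did not pass. The median change over the 6 was 0.30 in Nmd+ and 0.29 in Nmd-, beside 0.05 and 0.02 over all probe sets. HXT6 and HXT7 were also called at 20-30 min in Nmd+ (0.75 and 0.69, adjusted p of 0.0046 and 0.0065), beside 6.50% of all probe sets, and both calls were lost on the reference scale (0.26 and 0.20, adjusted p of 0.152 and 0.258).

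All 6 genes that link the sensors to the HXT promoters had a probe set. MTH1, the corepressor gene, rose in Nmd+ by 1.45 (adjusted p = 0.0279) to 20-30 min and by 1.48 (adjusted p = 0.0102) to 45-60 min, and the first was lost without the arrays with a marker against the label (adjusted p = 0.0569) and on the reference scale (adjusted p = 0.0567). STD1, its paralog, fell by 0.77 (adjusted p = 0.0165) to 20-30 min in Nmd+. GRR1, the F-box protein gene of the ubiquitin ligase that marks Mth1, rose by 0.85 (adjusted p = 0.0171) to 45-60 min in Nmd-, and had 0.37 on the reference scale (adjusted p = 0.127). RGT1, YCK1 and YCK2 were not called in any comparison. At 45-60 min 1 of the 6 was called higher in each strain, beside 11.1% of all probe sets in Nmd+ and 9.97% in Nmd-. The median over the 6 was then 0.19 in Nmd+ and 0.07 in Nmd-, beside 0.05 and 0.02 over all probe sets.

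Of the 3 genes for the enzymes that phosphorylate glucose, HXK1 and GLK1 rose in both strains by 45-60 min, beside 11.1% of all probe sets called higher in Nmd+ and 9.97% in Nmd-. HXK1, hexokinase isoenzyme 1, rose by 1.78 (adjusted p = 0.0068) in Nmd+ and 1.84 (adjusted p = 0.0098) in Nmd-, and both calls held on the reference scale, at 1.09 and 1.36. GLK1, glucokinase, rose by 1.28 (adjusted p = 0.0023) and 1.02 (adjusted p = 0.0100). On the reference scale it rose by 0.59 (adjusted p = 0.0162) in Nmd+, while in Nmd- its 0.54 was under the 1.5-fold minimum. The probe set of GLK1 is itself in the reference used for centring. Its values on that scale are therefore set in part against its own signal and are not an independent check of its rise. HXK2, the main hexokinase at high glucose, rose by 0.63 (adjusted p = 0.0079) to 20-30 min in Nmd+, a call lost on the reference scale (0.14, adjusted p = 0.393). By 20-30 min in Nmd+, HXK1 had already risen by 1.60 (adjusted p = 0.0023) and GLK1 by 1.07 (adjusted p = 0.0023). The median of the 3 at 45-60 min was 1.28 in Nmd+ and 1.02 in Nmd-, beside 0.05 and 0.02 over all probe sets. At 6-10 min in Nmd-, HXK1 and GLK1 were called higher, as HXT5 was, and without the arrays at 6, 10 and 20 min they had -0.24 (adjusted p = 0.740) and -0.36 (adjusted p = 0.339).

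Glucose repression, the pathway from the kinase Snf1 to the repressor Mig1, was read by 16 probe sets of 15 genes. At 45-60 min 2 of the 16 were called higher in Nmd+, beside 11.1% of all probe sets, and 1 of the 16 in Nmd-, beside 9.97%. MIG1 rose in Nmd+ by 0.79 (adjusted p = 0.0259) to 20-30 min and 0.90 (adjusted p = 0.0086) to 45-60 min, SIP2, a β subunit of the Snf1 complex, by 0.71 (adjusted p = 0.0319) to 45-60 min in Nmd+, and GLC7, the phosphatase catalytic subunit, by 0.68 (adjusted p = 0.0137) to 45-60 min in Nmd-. None of these calls held on the reference scale (0.30, 0.21, 0.02 and 0.20), and without every array with a marker against its label MIG1 at 20-30 min, SIP2 and GLC7 had adjusted p of 0.0559, 0.0526 and 0.0532. GLC7 was also called at 6-10 min in Nmd- (0.69, adjusted p = 0.0229) and had 0.14 (adjusted p = 0.807) without the arrays at 6, 10 and 20 min. The median of the list at 45-60 min was 0.21 in Nmd+ and 0.13 in Nmd-, beside 0.05 and 0.02 over all probe sets.

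Glucose signalling through cAMP was read by 18 probe sets of 10 of 11 genes. RAS1, a GTPase gene, fell by 1.65 (adjusted p = 0.00072) in Nmd+ and 1.41 (adjusted p = 0.0050) in Nmd- by 45-60 min, and TPK3, a catalytic subunit gene of protein kinase A, by 0.96 (adjusted p = 0.0026) and 0.86 (adjusted p = 0.0078). TPK2, another such subunit gene, rose by 1.19 (adjusted p = 0.0013) and 1.01 (adjusted p = 0.0059). On the reference scale RAS1 and TPK3 were still called, and TPK2, at 0.50 and 0.53, was under the 1.5-fold minimum. In all, 5 of the 18 were called higher and 2 lower in Nmd+, beside 11.1% and 14.3% of all probe sets, and 6 higher and 2 lower in Nmd-, beside 9.97% and 11.1%, with medians of 0.22 and 0.40. Of the 6 higher in Nmd-, 3 were probe sets of CYR1, the adenylate cyclase gene, and every call of a higher value at 45-60 min was lost on the reference scale in both strains. At 0 min, the same 3 probe sets of CYR1 were lower in Nmd- by 1.70, 1.55 and 1.27 (adjusted p of 0.0077, 0.0274 and 0.0359). They were 3 of the 18, beside 4.98% of all probe sets called in either direction, and the only calls between strains at 0 min among the 5 lists. The sets with 1.70 and 1.55 lay low in Nmd- at 0-2 min, from 2.95 to 3.89 and from 2.23 to 3.16.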

How the data were processed

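Strain, time and course came from the sample titles (the source names give upf1- for every array). The authors made the deposited values with RMA over 96 arrays. Their methods describe natural logs, but the maximum of 14.16 is above 11.09, the most that a 16-bit scanner intensity can give on that scale, so the deposited values were taken as log2. If they were not, the fold changes would differ and the adjusted p-values would not. The deposited scan records, whose fields are other text settings, were used for the scan period and the chip lot alone. The fits did not include 60 control probe sets of the array. Of the other 9275, 6504 carry 1 gene name, 328 several and 2443 none. KanMX4 was named from the study's supplementary table.

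Each course gave its mean at 0 and 2 min (0-2), 6, 8 and 10 min (6-10), 20, 25 and 30 min (20-30) and 45, 50 and 60 min (45-60), as differences from the first. The 6 values per probe set, or the 6 arrays at 0 min, were fitted with limma 3.58.1 in R 4.3.3 with Benjamini-Hochberg adjustment, after a test on simulated data. p-values measure the spread between 3 courses per strain, and precision is limited by how few courses there are. Summaries were made in Python 3.11.15 with pandas 2.3.3, numpy 2.4.6 and matplotlib 3.10.9. The numbers of courses were checked as pairs. Same-numbered courses had r of 0.728, 0.576 and 0.827 over probe sets in the mean over 16 times and 0.268, 0.328 and 0.261 in the change to 20-30 min, and were taken as pairs there. In the other windows and at 0 min at least 1 r was under 0.1 (at 0 min 0.103, -0.303 and 0.059).

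The members and the lists were chosen with earlier results of these data known. The genes named were all members, UPF1 and KanMX4, up to 4 called genes of each list by smallest adjusted p, and the 2 probe sets with 1 gene name most like each member. Alternatives changed the pairing, scan period, arrays, centring, dim filter (log2 of 4), fold minimum, variance model and courses. Half-lives were not fitted. Sequences are not shown here.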

Additional observations from a re-analysis of the deposited data

How the results depend on the processing

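Settings that left out arrays for their time or for both reasons, and blocks combined with them, were chosen after seeing the data. The number of the 7 members called was recomputed for each comparison. The share of all probe sets called in each of these settings is not given here. These counts therefore do not set the members apart from the rest of the array. With the replicate block it was 1 in the mean over the 16 times (HXT5), and the block changed no other count. The blocked count in the mean was also 1 with the times 6, 10 and 20 min dropped from every course. It stayed 1 with these times and those of the arrays with a marker against the label dropped. For the Nmd+ change to 6-10 min it was 2 with the scan period taken out (HXT4 added) and 0 without the arrays with both markers, or any marker, against the label or with a trended, robust variance. For the Nmd- change to 6-10 min it was 1 with a running median over probe set number or the array median taken out (HXT1 lost), and 0 in the 3 settings without the arrays at 6 and 10 min. In those 3 settings the strain difference in the change to 6-10 min had 1 member called, HXT5 at -1.38 where the deposited arrays gave 0.85, and the Nmd- change of HXT5 turned to -0.37. With the replicate block as well, HXT5 was not called there (adjusted p = 0.0735). The Nmd- change to 20-30 min had 1 without the arrays at 6, 10 and 20 min, with or without the marker arrays (HXT5). Centred on 108 reference probe sets, 5 members were called in each of Nmd+ at 20-30 min, Nmd+ at 45-60 min and Nmd- at 45-60 min. That centring moved every probe set alike, and the share of all probe sets called with it is not given here. Leaving out 1 course gave 0 to 1 members for the Nmd+ change to 6-10 min, 1 to 1 for Nmd- at 6-10 min, 2 to 3 for Nmd+ at 20-30 min, 0 to 1 for Nmd- at 20-30 min (HXT5 without Nmd+ course 3, adjusted p = 0.0279), 1 to 2 for Nmd+ at 45-60 min, 1 to 2 for Nmd- at 45-60 min and 0 for the strain differences. Where a strain kept 2 courses, the spread was shared with the other strain. The cause of these shifts was not tested, beyond there being fewer courses or arrays in the fit. SNF3 lay below the median signal of every array, which limits its precision.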
